A study of Mus musculus with 36 samples.

Results

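The genes described here encode 8 enzymes that build fatty acids from acetyl-CoA: Acly, Acss2, Acaca, Acacb, Fasn, Elovl6, Scd1 and Scd2. They were chosen by gene symbol, and all 8 were found in each of the 6 gene tables, among 16060 genes listed in at least 1 of them. Their transcript models numbered 33 of the 38061 in the transcript tables, against 47 in the annotation. The data are bulk RNA sequencing of liver and of inguinal white adipose tissue (iWAT, a fat depot under the skin) from C57BL/6J mice kept for 16 weeks on 1 of 3 diets. One group was calorie-restricted (CR), one was time-restricted without calorie restriction (TR), and the control group was fed ad libitum (AL). There are 6 libraries for each diet in each tissue, and of 20 mice 16 gave both tissues, counting 1 animal number that the labels give under both CR and TR as 2 mice. No genotype or agent other than the diet is given in the labels. Setting TR beside CR asks how far a daily fast gives the response of calorie restriction when calories are not cut. The sources used here do not state the time between the last meal and sampling, so diet and feeding state cannot be told apart.

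Fatty acid synthesis turns surplus carbohydrate into storage fat, mainly in liver and adipose tissue, and its enzymes are known to be induced by refeeding and insulin. ATP-citrate lyase (Acly) cuts citrate in the cytosol into acetyl-CoA, and acetyl-CoA synthetase (Acss2) makes acetyl-CoA from acetate. The acetyl-CoA carboxylases Acaca and Acacb make malonyl-CoA, which fatty acid synthase (Fasn) joins into palmitate and which, when made by Acacb, also restrains mitochondrial fatty acid oxidation. Elovl6 lengthens palmitate to stearate, and the desaturases Scd1 and Scd2 place the double bond that makes oleate and palmitoleate.

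The deposited tables hold comparisons of groups, not values per library, so the spread between mice enters through the authors' test and no library can be shown or left out. The depth per library is unknown. A group's level in CPM (read counts scaled to library size) was worked out from the deposited mean and fold change. Changes are log2 fold changes, with an approximate standard error (SE) derived from the deposited statistic. A gene rose or fell only where the authors' adjusted p (edgeR likelihood ratio, Benjamini-Hochberg over the table) was under 0.05. Fewer cells of a type and less RNA per cell cannot be told apart in bulk tissue.

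The enzymes together held 1.07% of all CPM in CR liver and 1.28% in TR liver, against 0.393% in AL liver. In iWAT they held 8.29% in CR and 8.42% in TR, against 2.65% in AL. Scd1 made up most of this, with 5.33% of CPM in CR iWAT, 5.38% in TR iWAT and 2.06% in AL iWAT. Scd1 had the highest CPM of any gene in CR iWAT and in TR iWAT and stood in place 2 in AL iWAT. Without Scd1 the other members still held 2.96% and 3.04% in CR and TR iWAT, against 0.592% in AL iWAT.

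Per kilobase of transcript, by the length used here, Scd1 was followed by Fasn and then Acly in each of the 6 groups. The length used was the mean over all measured models of a gene, weighted by their level per base in the group. Short retained-intron models count in it, so for Fasn it was 5339 bases in AL liver. Its main coding models, Fasn-205 and Fasn-201, have 8333 and 10050 bases. In AL liver Fasn stood at 85.4 CPM per kilobase by this length and Acly at 61.5. Of that Fasn level Fasn-205 and Fasn-201 held 40.0% and 16.4%, and the retained-intron model Fasn-202 held 32.0%. By coding models alone Fasn would there stand below Acly. The order by coding models in the other groups was not worked out. Scd1 stood at 1690 CPM per kilobase in CR liver and 2043 in TR liver, against 561 in AL liver, and at 12240 in CR iWAT and 12540 in TR iWAT, against 3855 in AL iWAT. The lowest member in liver was Scd2, at 1.47 CPM per kilobase in CR, 1.97 in TR and 1.02 in AL. In iWAT the lowest was Acacb on both diets, at 131 and 141 CPM per kilobase in CR and TR, but Elovl6 in AL, at 11.2. With no values per library, the spread that would separate neighbours in these orders is not known.

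**Figure D1:**
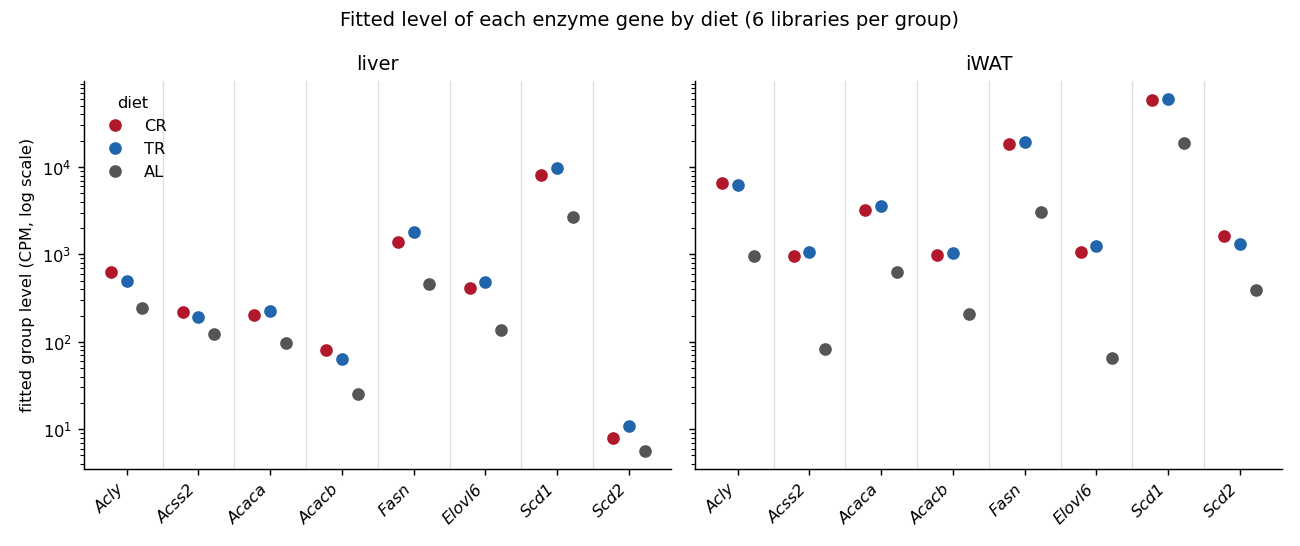
Fitted group level of each enzyme gene in CPM on a log axis, in liver (left) and iWAT (right), with CR, TR and AL as separate points. Each point is worked out from a comparison of 6 libraries a group and has no error bar, since values per library are not in the tables. AL is the lowest of the 3 diets for each gene in both tissues, and the distance from AL is widest for Elovl6 and Acss2 in iWAT.

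Promoter sequence, taken from RefSeq (GRCm38.p6) as the 250 bases before the start site, is shown for Fasn and Acly. These rank next after Scd1 per kilobase by the length used here and have an entry. Entries were matched for 6 of the 8 genes, and Scd1 and Scd2 have none. The start site is that of Fasn-201, of Acly-201 and Acly-203, and of the main Elovl6 model. The Acacb window lies before Acacb-201, 18983 bases inside the gene, and the Acaca window before Acaca-201, 65766 bases inside it. The Acss2 start lies 95 bases inside the gene and is that of no model measured here. Capitals mark matches, on either strand, to the CCAAT box (CCAAT) in Fasn and to the GC box (GGGCGG) in Acly. The Fasn stretch lies at chr11:120824548-120824797 and the Acly stretch at chr11:100528001-100528250, both on the minus strand and printed 5′ to 3′.
Fasn: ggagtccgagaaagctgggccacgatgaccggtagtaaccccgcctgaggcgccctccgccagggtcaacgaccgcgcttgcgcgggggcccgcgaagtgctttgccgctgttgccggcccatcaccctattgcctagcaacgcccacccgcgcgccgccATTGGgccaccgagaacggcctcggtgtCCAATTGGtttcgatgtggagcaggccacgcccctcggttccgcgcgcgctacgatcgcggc
Acly: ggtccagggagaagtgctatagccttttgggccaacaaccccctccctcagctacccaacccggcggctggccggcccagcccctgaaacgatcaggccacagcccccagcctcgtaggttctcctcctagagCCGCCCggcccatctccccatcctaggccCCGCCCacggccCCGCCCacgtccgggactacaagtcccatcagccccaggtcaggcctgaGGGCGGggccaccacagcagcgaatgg
Fasn holds 3 CCAAT matches, and the run CCAATTGG in it is a pair of them on opposite strands that overlap by 2 bases. A CCAAT match was also found in the windows of Acss2 and Acacb-201, and 33.8% of the 32851 promoters of the same length hold one. Acly and Acss2 hold 4 GC box matches each, and 32.7% of promoters hold at least 1. The E-box letters CACGTG were found in 0 of the 6 windows and in 6.02% of all promoters, and the sterol regulatory element letters TCACNCCAC in 0 of the 6 and in 1.05%. Beside such shares 0 of 6 gives little to read, and the Acaca and Acacb windows lie far inside their genes.

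In the liver most of the pathway rose on both diets, from the supply of acetyl-CoA to desaturation. In CR liver 7 of 8 enzymes rose and none fell, where 5.79% of 12636 genes rose and 5.37% fell. In TR liver 8 of 8 rose, where 9.35% of 12691 genes rose and 9.54% fell. With an F distribution of 1 and 10 degrees of freedom in place of the authors' chi-square, 6 of 8 passed in TR liver, and Acss2 (adjusted p = 0.067) and Scd2 (adjusted p = 0.053) did not. The median log2 fold change of the 8 was 1.47 in CR and 1.28 in TR, beside -0.0038 and -0.00052 for all genes. The adipocyte marker list, of which 7 of 12 genes were measured in liver, summed to 67.2 CPM in CR and 82.4 in TR, against 110 in AL. CR lowered 5 of these 7 genes, and TR lowered 4 and raised 1. Hepatocyte markers (9 of 9 measured) summed to 14.9% of CPM in CR liver and 16.0% in TR liver, against 11.7% in AL liver, with 1 of 9 higher in CR and 3 of 9 in TR. The lowest single hepatocyte marker had 1231 CPM in CR and 1284 in TR, against 1001 in AL. Macrophage markers (8 of 8 measured) summed to 165 CPM in CR liver and 140 in TR liver, against 185 in AL liver, with 1 of 8 lower in TR. No skeletal muscle marker was measured in liver. The part of these shifts in the liver results was not tested.

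Both sources of cytosolic acetyl-CoA rose. Acly (ENSMUSG00000020917, chr11:100476353-100528000) had 621 CPM in CR liver and 499 in TR liver, against 245 in AL liver. Its log2 fold change was 1.34 ± 0.15 (SE) in CR and 1.01 ± 0.18 in TR, with adjusted p = 1.9e-15 for CR and 3.4e-07 for TR per the authors' deposited tables. Acss2 (ENSMUSG00000027605, chr2:155517948-155585724) had 220 CPM in CR liver and 192 in TR liver, against 123 in AL liver. Among the members that rose in CR it rose least, by 0.84 ± 0.18 in CR (adjusted p = 0.00018, authors' deposited table), and by 0.63 ± 0.19 in TR (adjusted p = 0.0066, authors' deposited table). 

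Both carboxylases rose too. Acaca (ENSMUSG00000020532, chr11:84129672-84401651), the cytosolic enzyme, had 201.3 CPM in CR liver and 224 in TR liver, against 96.2 in AL liver. It rose by 1.07 ± 0.13 in CR and 1.21 ± 0.15 in TR, with adjusted p = 3.1e-13 for CR and 2.8e-13 for TR per the authors' deposited tables. Acacb (ENSMUSG00000042010, chr5:114146535-114250761), the form tied to mitochondria, had 80.3 CPM in CR liver and 64.3 in TR liver, against 25.1 in AL liver. It rose by 1.68 ± 0.23 in CR and 1.35 ± 0.18 in TR, with adjusted p = 5e-11 for CR and 6.1e-12 for TR per the authors' deposited tables. Acaca stood above Acacb per kilobase in all 3 liver groups, by 2.18 times in CR and 2.98 times in TR, against 3.40 times in AL.

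Fasn (ENSMUSG00000025153, chr11:120805846-120824547) had 1390 CPM in CR liver and 1793 in TR liver, against 456 in AL liver. That is 3.05 times the AL level in CR and 3.90 times in TR, with adjusted p = 6e-07 for CR and 1.1e-10 for TR per the authors' deposited tables. Elovl6 (ENSMUSG00000041220, chr3:129532355-129638495) had 415 CPM in CR liver and 484 in TR liver, against 136 in AL liver. Among the members it had the smallest p in CR liver, with a log2 fold change of 1.61 ± 0.16 (adjusted p = 1.8e-20, authors' deposited table), and it rose by 1.83 ± 0.23 in TR (adjusted p = 2.5e-13, authors' deposited table).

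The desaturases stood far apart in level. Scd1 (ENSMUSG00000037071, chr19:44394455-44407879), the main form in liver, had 8164 CPM in CR liver and 9873 in TR liver, against 2710 in AL liver. It rose by 1.59 ± 0.31 in CR and 1.86 ± 0.32 in TR, with adjusted p = 1.9e-05 for CR and 4.7e-07 for TR per the authors' deposited tables. Scd2 (ENSMUSG00000025203, chr19:44293674-44306864), its neighbour on the chromosome, had 8.01 CPM in CR liver and 10.8 in TR liver, against 5.57 in AL liver. Its log2 fold change was 0.52 ± 0.19 in CR (adjusted p = 0.054, authors' deposited table), short of the threshold, and 0.95 ± 0.26 in TR (adjusted p = 0.003, authors' deposited table). Scd1 and Scd2 are paralogs of similar sequence, and how far reads of Scd1 were counted as Scd2 was not tested.

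In iWAT the fitted fold changes against AL were above those in liver for each member but Scd1 in TR. In CR iWAT 7 of 8 rose, where 3.52% of 15295 genes rose and 3.78% fell, and in TR iWAT 8 of 8 rose, where 4.76% of 15356 genes rose and 5.24% fell. The median log2 fold change of the 8 was 2.49 in CR and 2.63 in TR, beside 0.024 and -0.038 for all genes. Counting members, 257 genes in CR iWAT and 451 in TR iWAT had a log2 fold change above that of the lowest member, Scd1.

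Markers of other cell types moved in iWAT as well. Hepatocyte markers (9 of 9 measured) summed to 0.308% of CPM in CR iWAT and 1.09% in TR iWAT, against 0.485% in AL iWAT, and single markers ranged down to 1.4 CPM in CR, 64.8 in TR and 16.9 in AL. Of them 6 fell in CR, and 0 passed the authors' edgeR test in TR, where 2 were higher at an unadjusted p under 0.05. The most abundant of them in each iWAT group, Trf (transferrin), had 3214 CPM in CR and 5764 in TR, against 3372 in AL. The 9 markers summed to 3415 CPM in CR iWAT and 12217.5 in TR iWAT, against 4377 in AL iWAT. In CR and AL the sums thus rest mostly on Trf, which did not pass in CR. Alb (albumin), a gene of hepatocytes, had 175 CPM in CR iWAT and 5113 in TR iWAT, against 680 in AL iWAT. The share of CPM that Alb held in iWAT was 0.152% of its share in liver on CR and 4.03% on TR, against 0.975% on AL. Skeletal muscle markers (12 of 12 measured) summed to 0.669% in CR iWAT and 0.0400% in TR iWAT, against 0.364% in AL iWAT, and 5 of them fell in TR. Their part in the results on the enzymes was not tested.

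The labelled tissue showed its own markers. Adipocyte markers (12 of 12 measured) summed to 2.80% of CPM in CR iWAT and 3.25% in TR iWAT, against 3.71% in AL iWAT. Of them 0 passed the authors' edgeR test in CR, where 3 were lower at an unadjusted p under 0.05, while 2 rose and 3 fell in TR. Brown and beige adipocyte markers (9 of 10 measured) summed to 0.0526% in CR iWAT and 0.0453% in TR iWAT, against 0.00897% in AL iWAT, and 7 rose on each diet. Cidea, a lipid droplet protein of that list, had 353 CPM in CR iWAT and 339 in TR iWAT, against 20.9 in AL iWAT. Macrophage markers summed to 0.0927% in CR and 0.0863% in TR, against 0.151% in AL, with 1 of 8, Mrc1, lower on each diet. Of all genes, 3.52% rose and 3.78% fell in CR iWAT, and 4.76% rose and 5.24% fell in TR iWAT. Beside these shares, 1 of 8 gives little to read. The part of these shifts was not tested either.

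Acss2 and Elovl6 changed most. Acss2 had 964 CPM in CR iWAT and 1075 in TR iWAT, against 83.5 in AL iWAT. It was 11.5 times the AL level in CR (95% interval 7.10 to 18.8) and 13.0 times in TR (8.46 to 19.97), with adjusted p = 4.1e-19 for CR and 8.9e-28 for TR per the authors' deposited tables. Elovl6 had 1063 CPM in CR iWAT and 1254 in TR iWAT, against 65.6 in AL iWAT. It was 16.2 times the AL level in CR (8.35 to 31.5) and 19.3 times in TR (10.4 to 35.5), with adjusted p = 2.2e-13 for CR and 7.1e-18 for TR per the authors' deposited tables. For the other members the fold over AL lay between 3.17 and 6.88 in CR and between 3.28 and 6.66 in TR.

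Acly had 6566 CPM in CR iWAT and 6305 in TR iWAT, against 954 in AL iWAT, and rose by 2.78 ± 0.61 in CR and 2.74 ± 0.38 in TR, with adjusted p = 0.00039 for CR and 3.1e-10 for TR per the authors' deposited tables. Per kilobase, Acly stood 4.48 times above Acss2 in CR iWAT and 3.94 times in TR iWAT, against 7.52 times in AL iWAT. The gap between the citrate and the acetate enzyme was thus narrower on both diets, a ratio of group levels for which no test was run. Acaca had 3222 CPM in CR iWAT and 3625 in TR iWAT, against 623 in AL iWAT. Acacb had 988 CPM in CR iWAT and 1043 in TR iWAT, against 210 in AL iWAT. Both carboxylases rose, Acaca by 2.37 ± 0.50 and 2.55 ± 0.32 and Acacb by 2.24 ± 0.41 and 2.33 ± 0.39 in CR and TR, with adjusted p from 1.6e-12 to 0.00015 in the authors' deposited tables.

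Fasn had 18490 CPM in CR iWAT and 19590 in TR iWAT, against 3024 in AL iWAT. It stood in place 4 of all genes by CPM in CR and place 3 in TR, against place 20 in AL. It rose by 2.61 ± 0.70 in CR and 2.71 ± 0.43 in TR, with adjusted p = 0.0057 for CR and 5.1e-08 for TR per the authors' deposited tables. Scd2 had 1611 CPM in CR iWAT and 1322 in TR iWAT, against 391 in AL iWAT, and rose by 2.04 ± 0.41 in CR and 1.77 ± 0.30 in TR, with adjusted p = 5.9e-05 for CR and 5.3e-07 for TR per the authors' deposited tables.

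Scd1 had 59130 CPM in CR iWAT and 60590 in TR iWAT, against 18630 in AL iWAT, nearly the same fold on both diets. It rose by 1.71 ± 0.19 in TR (adjusted p = 5.7e-17, authors' deposited table), while its 1.67 ± 0.68 in CR did not pass (adjusted p = 0.12, authors' deposited table). The fold changes were thus close and their errors were not. The SE in CR minus AL was 3.68 times that in TR minus AL, where the median over all genes was 0.880 times. For each of the 8 members this ratio was above 1 in iWAT, and 1.45 at the median. Other genes of high level leaned the same way: the median SE of the 84 genes above a log2 mean CPM of 10 was 0.435 in CR minus AL, and that of the 90 such genes in TR minus AL was 0.272. With an F distribution of 1 and 10 degrees of freedom in place of the chi-square, Acss2, Acacb and Elovl6 passed in CR iWAT, with adjusted p from 0.0092 to 0.042, and the others did not, with adjusted p from 0.055 to 0.29.

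**Figure D2:**
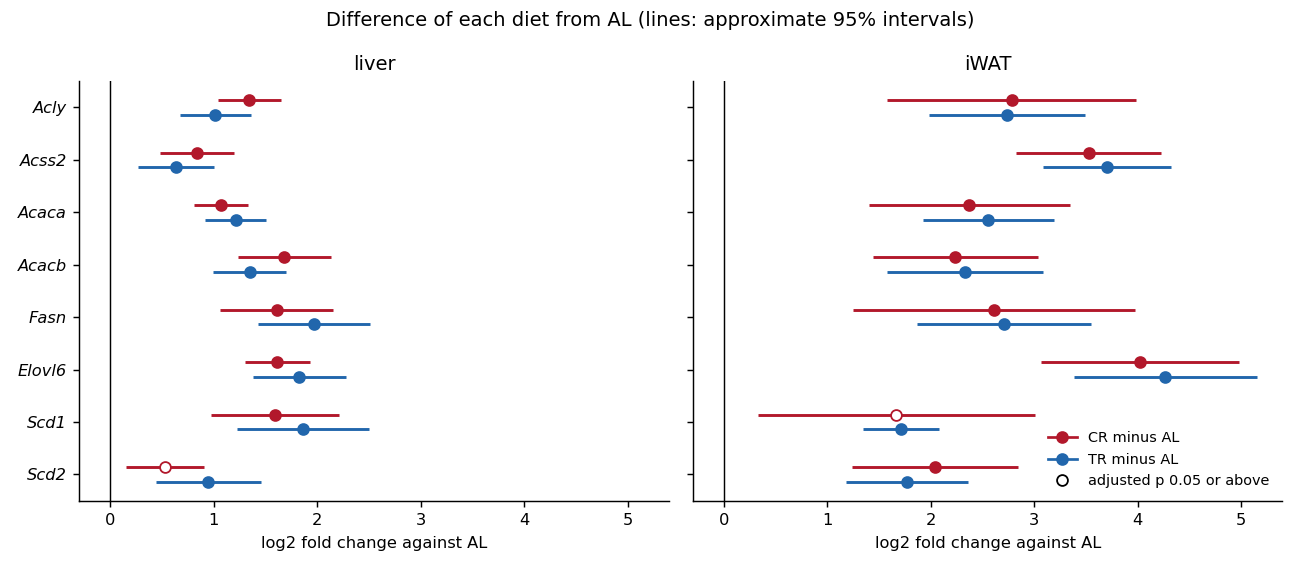
Log2 fold change against AL of each enzyme gene in liver (left) and iWAT (right), CR above TR in each row, with approximate 95% intervals as lines. Filled points passed the authors' adjusted p under 0.05 and open points did not. The open points are Scd2 in CR liver at 0.52 and Scd1 in CR iWAT at 1.67, and each point lies right of 0.

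No member passed the test of CR against TR. In CR minus TR, 0 of 8 passed the authors' edgeR test in liver, where 0.469% of 12593 genes did, and 0 of 8 in iWAT, where 0.918% of 14699 genes did. Before adjustment 1 of 8 had p under 0.05 in liver, as had 10% of all genes, and 0 of 8 in iWAT, as had 3.62% of all genes. The 1 was Acly, with 604 CPM in CR liver and 481 in TR liver on the scale of that table and a log2 fold change of 0.33 by the authors' edgeR test (p = 0.02, adjusted p = 0.35, authors' deposited table). In liver Acly, Acss2 and Acacb were on the CR side, at 0.33, 0.21 and 0.33. The other 5, Acaca, Fasn, Elovl6, Scd1 and Scd2, were on the TR side, from -0.14 to -0.42. None of these differences passed the authors' edgeR test.

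The intervals give the range of differences compatible with the data for each member. For Fasn, CR minus TR was -0.35 in liver (95% interval -0.75 to 0.036) and -0.18 in iWAT (-0.88 to 0.52). For Elovl6 it was -0.21 in liver (-0.63 to 0.21) and -0.32 in iWAT (-0.93 to 0.28). Scd1 had -0.26 in liver (-0.58 to 0.051) and -0.12 in iWAT (-0.77 to 0.52), and Acss2 had 0.21 in liver (-0.10 to 0.52) and -0.25 in iWAT (-0.83 to 0.32). Over the 8 members the intervals reached from -0.89 to 0.78 in liver and from -0.93 to 0.77 in iWAT. Differences of nearly 1 log2 unit thus lie within the widest of them, and the others reach less far. In the same iWAT comparison 8 of 9 hepatocyte markers fell and 3 of 11 measured skeletal muscle markers rose in CR against TR, where 0.857% of all genes fell and 0.0612% rose.

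**Figure D3:**
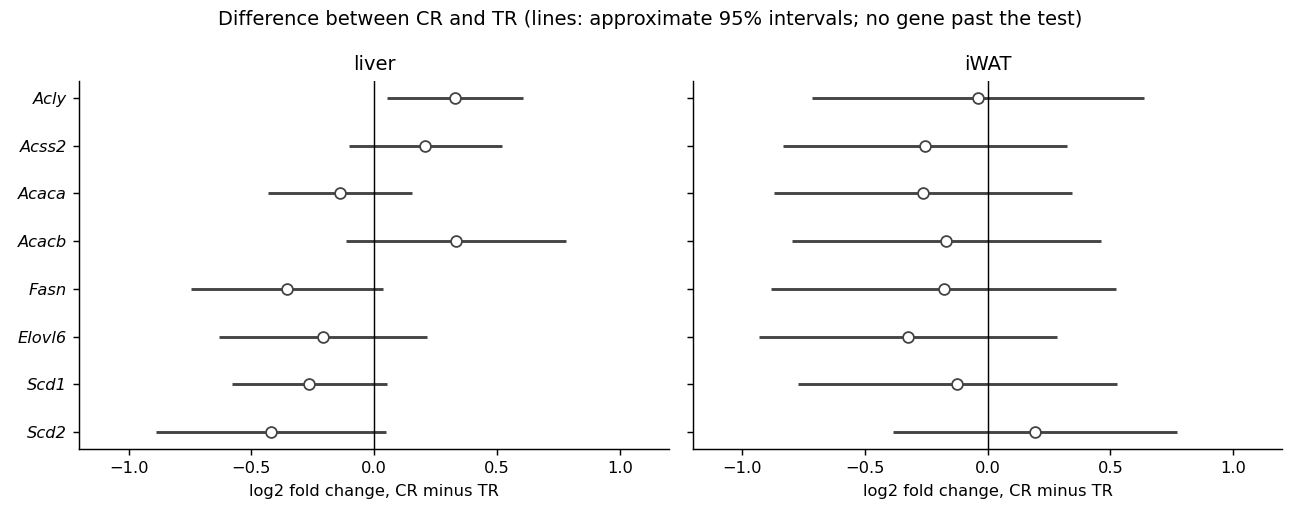
Log2 fold change of CR minus TR for each enzyme gene in liver (left) and iWAT (right), with approximate 95% intervals as lines. Open points did not pass the authors' adjusted p under 0.05, which is so for all 16 points, and Acly in liver, at 0.33, has the one interval that leaves out 0.

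The same diet moved some members further in fat than in liver. On CR 6 of 8 members rose in both tissues, where 0.683% of 12012 genes did, and on TR 8 of 8, where 1.08% of 12201 genes did. The difference of the 2 log2 fold changes, iWAT minus liver, was tested with an approximate z test, 2-sided and Benjamini-Hochberg adjusted over all genes in both tables. On CR 3 of 8 members responded more in iWAT, where 3.09% of genes did, and on TR 4 of 8, where 4.16% of genes did. No member responded less in iWAT on either diet, where 3.65% of genes did so on each. Both tissues came largely from the same mice, and they were treated as uncorrelated.

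Acss2 differed most, by 2.69 ± 0.40 on CR (adjusted p = 1e-08) and 3.07 ± 0.37 on TR (adjusted p = 6.1e-14). Elovl6 followed, with 2.40 ± 0.51 on CR (adjusted p = 0.00035) and 2.44 ± 0.51 on TR (adjusted p = 0.00012). Acly passed on TR, at 1.72 ± 0.42 (adjusted p = 0.002), and had 1.44 ± 0.63 on CR (adjusted p = 0.17). Acaca likewise passed on TR, at 1.34 ± 0.36 (adjusted p = 0.0054), and had 1.31 ± 0.51 on CR (adjusted p = 0.11). Scd2 passed on CR, at 1.52 ± 0.45 (adjusted p = 0.019), and had 0.83 ± 0.40 on TR (adjusted p = 0.21). The call on Scd2 was lost with a correlation of -0.3 between tissues (adjusted p = 0.058) or a t distribution with 20 degrees of freedom (adjusted p = 0.079).

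Acacb, Fasn and Scd1 did not pass on either diet. Scd1 was nearest to no difference, at 0.076 on CR (95% interval -1.40 to 1.55) and -0.15 on TR (-0.88 to 0.58). Fasn had 1.00 on CR (-0.47 to 2.48) and 0.74 on TR (-0.26 to 1.74). Whether the response differed between diets in this respect was not tested.

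**Figure D4:**
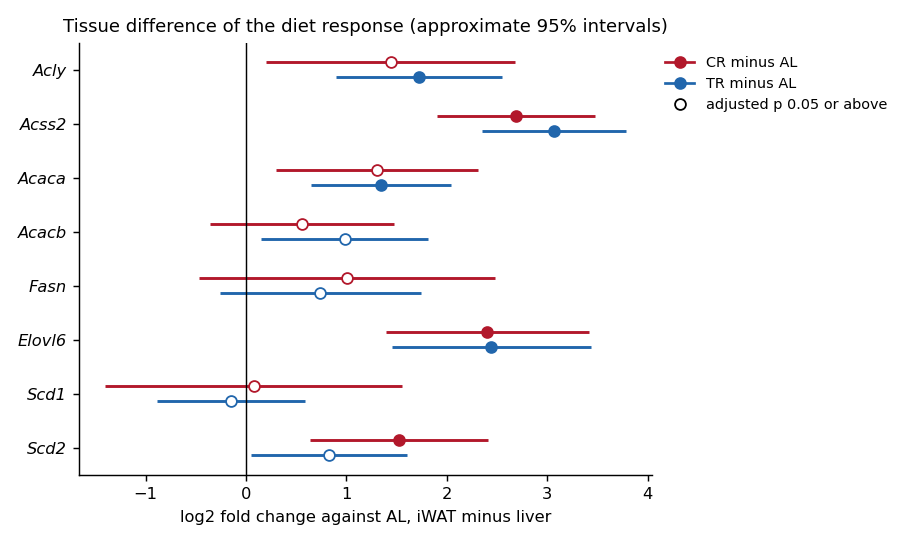
Difference between tissues in the log2 fold change against AL, iWAT minus liver, for each enzyme gene, CR above TR in each row, with approximate 95% intervals as lines. Filled points passed the adjusted p under 0.05. Acss2 and Elovl6 lie between 2.40 and 3.07 on both diets, and Scd1 lies at 0.076 on CR and -0.15 on TR.

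The tissue in which a gene took the larger share of CPM also turned for 2 members. In AL mice the share in iWAT was 0.726 times that in liver for Acss2 and 0.517 times for Elovl6. On the diets it was above liver for both, by 4.10 times on CR and 5.13 times on TR for Acss2 and by 2.39 and 2.37 times for Elovl6. The other members had the larger share in iWAT on each diet. Scd2 was the most fat-weighted, at 188 times the liver share on CR and 112 times on TR, against 75.0 times on AL. These ratios set levels across tables that were normalized separately, and carry no test.

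About as many transcript models of the enzymes rose in liver as did not pass, and most rose in iWAT. In CR liver 14 of 27 models rose, where 1.45% of all models did, and in TR liver 13 of 26, where 1.96% did. Of the Acss2 models 1 of 7 rose in CR liver and 1 of 6 in TR liver, with medians of 0.65 and -0.0017, and in iWAT 7 of 8 rose in CR and 8 of 8 in TR. In CR iWAT 20 of 33 rose, where 1.42% did, and in TR iWAT 24 rose and 1 fell of 33, where 2.03% rose and 1.52% fell. In CR minus TR the authors' edgeR test called 0 of 28 in liver, where 0.323% of models were called, and 0 of 32 in iWAT, where 0.413% were. Before adjustment 7 of 28 had p under 0.05 in liver and 0 of 32 in iWAT. The share of all models at that unadjusted p was not worked out, so these counts cannot be set beside it. A single model carried nearly all reads of some genes: the main Elovl6 model had 1043 CPM in CR iWAT and 1251 in TR iWAT, against 65.0 in AL iWAT, and Acaca-201 had 3087 in CR and 3525 in TR, against 610 in AL. Models that overlap share most of their bases, and the split of reads among them is the authors' estimate.

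The reads of Acacb were split over 3 main models. Acacb-202 starts at base 114146535 of chromosome 5, and Acacb-201 starts 18983 bases downstream, within the second exon of Acacb-202. The 8482 bases of Acacb-201 are all part of Acacb-202, which has 306 more, mostly its first exon. In liver Acacb-201 had 40.0 CPM in CR and 31.0 in TR, against 6.37 in AL, and rose by 2.65 ± 0.74 in CR and 2.28 ± 0.66 in TR, with adjusted p = 0.017 for CR and 0.02 for TR per the authors' deposited tables. By the same edgeR test the unadjusted p was 0.00033 for CR and 0.00058 for TR. Neither passes a Bonferroni adjustment over all models. Acacb-202 had 15.2 CPM in CR liver and 9.17 in TR liver, against 11.6 in AL liver, and did not pass, with 0.39 ± 0.50 in CR and -0.35 ± 0.49 in TR, at adjusted p = 0.99 for CR and 0.9 for TR per the authors' deposited tables. The reads given to Acacb-201 thus made up 49.9% of those of the gene in CR liver and 48.2% in TR liver, against 25.2% in AL liver. Acacb-202 held 19.0% in CR liver and 14.3% in TR liver, against 46.0% in AL liver, where it was the largest of the 3. Differences between models, diets or tissues in these shares were not tested.

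In iWAT nearly all reads of Acacb went to Acacb-202 and Acacb-204. Acacb-202 held 53.0% in CR iWAT and 48.3% in TR iWAT, against 56.3% in AL iWAT, and Acacb-204 held 44.4% in CR and 51.5% in TR, against 37.0% in AL. Acacb-202 had 516 CPM in CR iWAT and 503 in TR iWAT, against 119 in AL iWAT, and rose by 2.12 on both diets (adjusted p = 0.00077 in CR and 0.0012 in TR, authors' deposited tables). Acacb-201 had 23.7 CPM in CR iWAT and 0.0047 in TR iWAT, against 13.9 in AL iWAT. It was the 1 model called lower in TR (adjusted p = 0.00014, authors' deposited table), and as its fitted level in TR is next to 0 no fold is given. Its difference in CR did not pass (0.78 ± 1.97, adjusted p = 0.97, authors' deposited table). Acacb-204, a retained-intron model, had 432 CPM in CR iWAT and 537 in TR iWAT, against 77.9 in AL iWAT, and rose on both diets in iWAT and in liver.

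**Figure D5:**
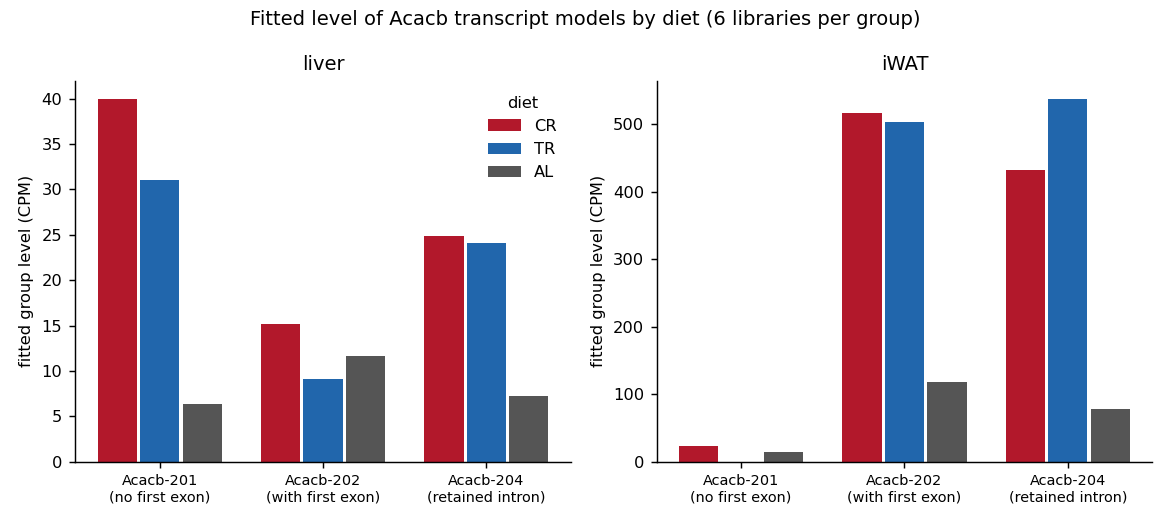
Fitted group level in CPM of 3 Acacb transcript models in liver (left) and iWAT (right), on linear axes from 0 that differ between panels, with bars for CR, TR and AL and no error bars, since values per library are not in the tables. In liver Acacb-201 stands at 40.0 in CR and 31.0 in TR over 6.37 in AL, while Acacb-202 stands between 9.17 and 15.2; in iWAT Acacb-202 and Acacb-204 hold nearly all of the level.

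Acly was split over 3 coding models that differ little. Acly-201 lacks 33 bases of Acly-203, and Acly-207 starts 4402 bases downstream of Acly-203 and lacks 264. In iWAT Acly-207 had 1445 CPM in CR and 2409 in TR, against 257 in AL, and rose in TR by 3.27 ± 0.37 (adjusted p = 5.3e-15, authors' deposited table) but did not pass in CR, at 2.49 ± 0.93 (adjusted p = 0.17, authors' deposited table). Acly-203 rose in both, by 2.64 ± 0.52 and 2.57 ± 0.42, with adjusted p = 9.3e-05 for CR and 5.8e-07 for TR per the authors' deposited tables. Fasn was read mostly as Fasn-205, with 10870 CPM in CR iWAT and 10960 in TR iWAT, against 1841 in AL iWAT, and then as Fasn-201, with 5953 in CR and 7185 in TR, against 985 in AL.

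Genes that feed the pathway with citrate and NADPH mostly rose in iWAT. The counts of this and the following lists stand beside the shares of all genes given above for each comparison. Those are 5.79% higher and 5.37% lower in CR liver, 9.35% and 9.54% in TR liver, 3.52% and 3.78% in CR iWAT, and 4.76% and 5.24% in TR iWAT. In iWAT 9 of 13 rose in CR and 11 of 13 in TR, with medians of 1.34 and 1.496. In liver 3 of 13 rose in CR and 2 of 13 in TR, with medians of 0.17 and 0.22. Slc25a1, the mitochondrial citrate carrier, had 1902 CPM in CR iWAT and 2688 in TR iWAT, against 252 in AL iWAT (adjusted p = 5.6e-08 and 7.5e-20, authors' deposited tables). In liver Slc25a1 had 158 CPM in CR and 164 in TR, against 147 in AL (adjusted p = 0.67 and 0.43, authors' deposited tables). Me1, malic enzyme, which makes NADPH, had 3462 CPM in CR iWAT and 3904 in TR iWAT, against 602 in AL iWAT (adjusted p = 2.9e-05 and 5.7e-17, authors' deposited tables). Tkt, transketolase of the pentose phosphate pathway, rose in both tissues, by 2.61 and 2.94 in CR and TR iWAT and by 0.60 and 0.78 in CR and TR liver in the authors' deposited tables.

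Among 19 lipogenic transcription factors and their partners, there were 4 higher and 2 lower in CR liver, and 4 higher and 3 lower in TR liver. In iWAT 3 rose on each diet and 0 fell by the authors' edgeR test, with 0 lower in CR and 1 in TR at an unadjusted p under 0.05. The list's medians were -0.073 and 0.022 in CR and TR liver and 0.25 and 0.26 in CR and TR iWAT. Srebf1, which encodes SREBP1, an activator of these enzymes, had 287 CPM in CR liver and 344 in TR liver, against 89.0 in AL liver, and rose on both diets (adjusted p = 5.7e-09 and 3.7e-13, authors' deposited tables). In iWAT Srebf1 had 563 CPM in CR and 581 in TR, against 319 in AL, and did not pass (adjusted p = 0.17 and 0.13, authors' deposited tables). Mlxipl, which encodes the glucose-responsive factor ChREBP, likewise rose in liver, by 0.63 and 0.69 (adjusted p = 1.9e-05 and 1.6e-05, authors' deposited tables), and had 0.75 and 0.65 in CR and TR iWAT (adjusted p = 0.19 and 0.24, authors' deposited tables). Thrsp, a lipogenic protein, rose in both tissues, by 3.42 and 3.16 in CR and TR liver and by 2.47 and 2.89 in CR and TR iWAT in the authors' deposited tables. Insig1, which holds SREBPs in the endoplasmic reticulum, had 1072 CPM in CR iWAT and 1204 in TR iWAT, against 182 in AL iWAT, and rose on both diets. Insig2 fell in TR liver, by 0.98 on the log2 scale (adjusted p = 4.9e-06, authors' deposited table).

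Some of the other elongation and desaturation enzymes rose. Of 16 other elongases, desaturases and elongation enzymes measured in liver, CR had 4 higher and 1 lower, and TR had 5 higher and 3 lower. Of 17 in iWAT, CR had 5 higher and 1 lower, and TR had 4 higher and 1 lower. The 1 lower in CR liver, CR iWAT and TR iWAT is near the share of all genes that fell there (5.37%, 3.78% and 5.24%). The medians were 0.25 and -0.00078 in CR and TR liver and 0.077 and 0.70 in CR and TR iWAT. Tecr and Hsd17b12, which act in the elongation cycle that Elovl6 begins, rose in iWAT on both diets. Tecr rose by 1.71 and 2.07 and Hsd17b12 by 1.35 and 1.54 in CR and TR in the authors' deposited tables. Hacd1 to Hacd4, of the same list, did not rise in iWAT, and Hacd4 fell in TR (-1.59, adjusted p = 0.015, authors' deposited table). In TR liver Hsd17b12 fell (-0.33, adjusted p = 0.045, authors' deposited table). The desaturase Fads1 stood with Elovl1 and Elovl5 among the genes of the list with the smallest adjusted p in liver, and was called higher. The desaturase Fads2 stood with Tecr and Hsd17b12 among those in iWAT, and was called higher there. Elovl5, an elongase of polyunsaturated fatty acids, fell in liver to 271 CPM in CR and 263 in TR, against 402 in AL. It was the 1 gene of the list lower in CR liver. In CR iWAT Elovl5 was higher, at 172.7 CPM against 104.3 in AL (adjusted p = 0.034, authors' deposited table). Its difference in TR iWAT did not pass (adjusted p = 0.13, authors' deposited table). Elovl1 was higher in liver, with 55.26 CPM under CR and 57.95 under TR, against 39.17 in AL (adjusted p = 0.0016 and 3.6e-05, authors' deposited tables). Elovl3, an elongase of the brown and beige list, was called in CR minus TR in liver (2.48 ± 0.46, adjusted p = 0.00019, authors' deposited table), with 145 CPM in CR against 26.0 in TR. Scd3 and Scd4 have no row in the tables used here.

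Of 12 carboxylase partners and AMPK subunits, 0 rose and 2 fell in CR liver by the authors' edgeR test, with 2 higher at an unadjusted p under 0.05. In TR liver 1 rose and 2 fell, where 9.35% of all genes rose and 9.54% fell, so the 1 that rose is near that share. In iWAT 2 rose on each diet, against all-gene shares of 3.52% for CR and 4.76% for TR. Median log2 fold changes of the list were -0.017 and 0.11 in CR and TR liver and 0.24 and 0.18 in CR and TR iWAT. Mid1ip1, which helps acetyl-CoA carboxylase to form filaments, had 202.9 CPM in CR iWAT and 236 in TR iWAT, against 57.4 in AL iWAT, and rose on both diets. Cpt1a, the gate of mitochondrial fatty acid oxidation that malonyl-CoA closes, fell in liver on both diets. Its log2 fold change there was -0.51 in CR and -0.50 in TR (adjusted p = 0.011 and 0.0014, authors' deposited tables). In iWAT Cpt1a did not pass (adjusted p = 0.16 and 0.23, authors' deposited tables). Cpt1b, of the same list, rose in iWAT, by 2.38 in CR and 1.85 in TR (adjusted p = 1.4e-05 and 0.0009, authors' deposited tables). In liver Cpt1b fell, to 2.19 CPM in CR and 2.12 in TR, against 5.49 in AL. Of the genes that activate fatty acids to acyl-CoA, 2 of 6 rose in CR liver and 1 of 6 in TR liver, and 2 of 8 in CR iWAT and 1 of 7 in TR iWAT. Their medians were 0.28 and 0.093 in CR and TR liver and 0.58 and 0.46 in CR and TR iWAT. Of 8 genes of the separate mitochondrial fatty acid synthesis pathway, 3 rose in CR iWAT and 4 in TR iWAT, with medians of 0.56 and 0.83. In liver 0 passed the authors' edgeR test in CR, where 1 was lower at an unadjusted p under 0.05, and 1 fell in TR, with medians of -0.018 and -0.095.

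The members differed among themselves in how close they lay to their common pattern, the median over members of the 4 log2 fold changes against AL. Acly, Acaca and Acacb were nearest, at Euclidean distances of 0.43, 0.43 and 0.45 log2 units, and Acss2 and Elovl6 farthest, at 1.74 and 2.31. Among 8548 other genes whose log2 mean CPM was 2 or more, the nearest to the common pattern were Lrtm1 at 0.23, Fabp5 at 0.51 and Gys2 at 0.65. Fabp5 is a fatty acid binding protein and Gys2 the liver glycogen synthase. Nearest to Acss2 were Ppp1r3b at 0.47 and Acot11 at 0.54, and nearest to Scd2 was Mid1ip1 at 0.38. No other gene lay within 1.5 of Elovl6, whose nearest was Acot11 at 1.56. The 4 values share the AL libraries of each tissue, and the distances carry no test.

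Of the 14 nearest measured protein-coding neighbours of the members, 0 passed the authors' edgeR test in iWAT on either diet. With 3.52% of all genes higher in CR iWAT and 4.76% in TR iWAT, so few genes give little to read from a 0. At an unadjusted p under 0.05, CR iWAT had 1 higher and TR iWAT 1 higher and 1 lower. In liver 2 rose in CR, where 5.79% of all genes did, and 4 in TR, where 9.35% did. Those in TR were Enpep (199635 bases from Elovl6), Ccdc57 (1982 bases from Fasn), Sec31b (109078 bases from Scd1) and Cnp (46904 bases from Acly). Cnp rose by 0.41 (adjusted p = 0.047, authors' deposited table).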

How the data were processed

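Liver and iWAT RNA was read from 36 libraries of 20 mice. Per the submitters' processing notes, the tools were bcl2fastq 2.20, STAR 2.5.3a and RSEM, and the build was GRCm38.p5. Per the file headers, the authors compared groups with edgeR generalized linear models. The 12 deposited tables hold log2 fold change and log2 mean CPM (the log2 values), the likelihood-ratio statistic (a score), and the p-value and FDR (the authors' adjusted p), per the file headers. The test was the deposited FDR under 0.05 over each table, as no counts per library are held in them. The sources used here do not give the filter, normalization or edgeR version.

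The SE was taken by dividing the absolute log2 fold change by the square root of the statistic, and 95% intervals assume a normal error. Group CPM was solved from log2 mean CPM and log2 fold change, taking 6 libraries a group. Each group's level came out of 2 tables, which differed by a constant (median log2 ratio from -0.0085 to 0.197). Levels printed beside a diet against AL come from that table, and AL levels from CR minus AL. Positions are GENCODE M21 (GRCm38). Python 3.11.15 and scipy 1.17.1 were used, and calculations were tested on simulated data. Members and lists were chosen with earlier results of these data known. All members were named, with at most 3 genes of each other list by smallest adjusted p, 6 more genes (Srebf1, Mlxipl, Me1, Slc25a1, Thrsp, Mid1ip1) whatever their values and the nearest patterns. All transcripts were counted. Alb and Trf in iWAT, Elovl3 in CR minus TR, and the transcripts and neighbours named were singled out after their values were seen.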

Additional observations from a re-analysis of the deposited data

Results flagged for a closer look

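The response to a diet differed between tissues, by the approximate test of the difference itself, in 7 of 16 cases. Of all genes, 3.09% responded more in iWAT on CR and 4.16% on TR. The cases of both diets share the AL libraries of each tissue, so they are not independent. On CR the log2 fold change against AL in iWAT less that in liver was 2.69 for Acss2, 2.40 for Elovl6 and 1.52 for Scd2. On TR it was 3.07 for Acss2, 2.44 for Elovl6, 1.72 for Acly and 1.34 for Acaca. Acss2 and Elovl6 were the members that passed on both diets. As given above, the call on Scd2 was lost with a correlation of -0.3 between tissues or with a t distribution.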

How the results depend on the processing

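Counts of members and models past the test were recomputed under 82 alternatives, of which 74 stayed within 1.5 times the reported count. With an F distribution of 1 and 10 degrees of freedom, 3 of 8 members passed in CR minus AL iWAT in place of 7. Under the same setting the transcript models past the test were 4 in CR liver in place of 14, 6 in TR liver in place of 13, 3 in CR iWAT in place of 20 and 7 in TR iWAT in place of 25. With Bonferroni adjustment they were 8 in CR liver, 8 in TR liver and 9 in CR iWAT, and Acacb-201 in liver was not among them. The F distribution gives a larger p for the same statistic by construction. By member, the F distribution took the calls of Acss2 and Scd2 in TR liver and of Acly, Acaca, Fasn and Scd2 in CR iWAT (adjusted p from 0.053 to 0.12). Bonferroni adjustment of the authors' edgeR p took those of Acss2 in CR liver (p = 0.066), of Acss2 and Scd2 in TR liver (p = 1 for both) and of Acly and Fasn in CR iWAT (p = 0.088 and 1). Taken from the other tables or summed over transcripts, each member's log2 fold change moved by less than its SE, and centring on each table's median changed no member's call. The 48 levels from another table moved by less than the SE on the log2 scale.

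Replicates were not left out in turn: the tables hold comparisons only. No paired analysis was possible because the tables hold comparisons of groups and not values per library. DESeq2, another normalization and a filter on counts were not run for the same reason. The widest approximate intervals of CR minus TR reach -0.93 in iWAT and 0.78 in liver, and those of the other members reach less far. They give the range of differences compatible with the data, not a limit of detection.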
